A study of Mus musculus with 9 samples.

Results

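The transcripts of 39 DNA repair genes, 3 of them RecQ helicases, were compared between whole osteosarcoma (OS) tumors of 2 genetically engineered mouse models (GEMMs). The genes were chosen by name and cover homologous recombination, the Fanconi pathway, mismatch repair, end joining, repair of single-strand breaks, the damage kinases and the RecQ helicases. All 39 were found among the 55367 genes of the deposited table, and all 39 passed the filter on low counts that left 15365 genes to be tested. The 4 p53-driven tumors carried Col2.3-Cre/TrpP53fl/+, in which the osteoblast promoter Col2.3 drives Cre and 1 Trp53 allele is floxed. The 5 Myc-knockin tumors carried p53fl/+ together with Cre-Lox-Stop-Lox;(LSL)-c-MycT58A, a Cre-dependent allele of Myc with the T58A change. The label of this group names no promoter for Cre. By the study's methods its mice came from a cross of the Col2.3-Cre p53 line with mice carrying that Myc allele. Both groups therefore shared Col2.3-Cre and the floxed Trp53 allele, and the sex of the mice was not given in the sources used here. By the study's account Myc-knockin mice reached sacrifice at a younger age than the p53 mice, the age at which each tumor was taken was not given, and age and genotype cannot be told apart. The libraries are called by their column names, F187, F325, F331 and F368 for the p53-driven tumors and M351, M408, M9, M624 and M664 for the Myc-knockin tumors, and values per tumor are always given in that order. No column was tied to a numbered sample, so a tumor counts only as a member of its group, and the p values measure the spread between these tumors.

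Cells mend broken DNA by several routes. Homologous recombination copies the sister chromatid after S phase, end joining ligates the ends directly at any phase, the Fanconi proteins open interstrand crosslinks that stall replication forks, and mismatch repair corrects errors left by the polymerase. RecQ helicases unwind recombination and replication intermediates, and inherited loss of human BLM, WRN or RECQL4 causes Bloom, Werner and Rothmund-Thomson syndromes, of which the last in particular carries a high risk of osteosarcoma. Many homologous recombination and Fanconi genes are transcribed mainly in cycling cells.

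Transcript levels are in CPM, the reads counted on a gene scaled to the TMM-normalized library size. Fold changes are log2 differences, Myc-knockin minus p53-driven, from edgeR's quasi-likelihood test. A gene was called at a Benjamini-Hochberg adjusted p under 0.05 over all tested genes together with a fold change over 1.5. Exact permutation tests of single genes were two-sided over the 126 arrangements of 4 and 5 tumors, whose smallest p is 0.0159. Total counts ranged from 2716322 to 17073285 per library, and 3 counts corresponded to 0.114 to 2.39 CPM, a floor that covers counting error only.

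The libraries were not alike. Satellite-repeat genes took 44.3% of the counts of F187, 67.9% of M351, 23.2% of M408 and 81.0% of M9, and at most 0.0242% in the other 5 libraries, which left M351 with 872935 and M9 with 671790 counts on all further genes. Reads on silent chemosensory receptor genes put the genomic background of F187, M351, M408 and M9 at 5.52%, 16.8%, 0.602% and 24.2% of the counts left. M624 and M664 held Rn7sk, a small nuclear RNA that is not polyadenylated, at 5.33 and 9.32 CPM, against at least 8858 CPM in the other 7. The targeted gene Myc measured 43.5 to 67.1 CPM in the p53-driven tumors and 144 to 1045 CPM in the Myc-knockin tumors, highest in M624 and M664, and its difference was called (log2 fold change 3.41, adjusted p = 0.0217). Trp53 measured 8.29 to 13.5 and 3.19 to 37.7 CPM, and a count over the whole gene does not separate a deleted exon. Osteoblast markers were present in both groups, with Runx2, the lineage's master transcription factor, at 246 to 371 CPM in the p53-driven tumors and 9.18 (M624) to 194 CPM in the Myc-knockin tumors, while osteocalcin (Bglap) was at 0 in M408 and at 0.0381 CPM in M624. Results are therefore also given without M624 and M664, and in the 5 satellite-poor libraries (F325, F331, F368, M624 and M664).

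The repair genes leaned to higher levels in the Myc-knockin tumors, but few passed edgeR's test. Fold changes were above 0 for 36 of 39 genes, where 56.2% of all tested genes were above 0, and their median was 0.89, against 0.14 over all tested genes. By edgeR 3 of the 39 genes rose, Blm, Exo1 and Fancd2, and 0 fell. Of all tested genes edgeR called 2.26% higher and 3.0% lower. DESeq2 called 15 of the 39 higher and 0 lower, against 10.5% and 7.58% of all genes. The tumors of the 2 groups did not overlap for 14 of 39 genes, all higher in the Myc-knockin tumors and none lower, against 5.41% of all tested genes apart in that direction and 7.54% in the other. In M9 the estimated genomic background came to between 5.10% and 101% of the counts of these 14 genes, and to over 50% for 8 of them. With that background subtracted from all libraries, the groups stayed apart for 6 of the 14, Rad51c, Exo1, Fancd2, Fanci, Parp1 and Recql4, and for no further repair gene, where 6.1% of all tested genes were apart in that direction. The 8 that then overlapped were Blm, Palb2, Rad54l, Xrcc3, Fanca, Xrcc1, Atrip and Chek1. At an unadjusted p under 0.05 there were 18 higher genes and 0 lower among the 39, against 14.9% and 11.8% of all tested genes. A further 11 genes had adjusted p values from 0.05 to 0.1, with Fanci and Fanca nearest to the threshold at 0.0501 each. In bulk tumors, fewer cells of a type and less RNA per cell cannot be told apart.

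The count of calls depended on the libraries and the scaling. Without M624 and M664, 6 of the 38 repair genes tested were called higher (Blm, Exo1, Fancd2, Fanci, Brca2 and Bard1), against 1.8% of all genes tested there. In the satellite-poor libraries, 3 p53-driven tumors against M624 and M664, 11 of 39 were called higher, but so were 15.7% of all genes. With the presence of satellite reads as a covariate over all 9 tumors, 9 of 39 were called higher against 7.86% of all genes, and DESeq2 called 15 of 39 against 10.5%. Scaling by library size alone called 0 of 39 and 0.325% of all genes, with 34 of 39 fold changes above 0 and medians of 0.83 over the repair genes and 0.03 over all genes. Of the 809 genes called in all, 43.0% were higher, and with upper-quartile scaling 64.5% of 971. Leaving out any 1 of F187, F325, F331, F368 or M624 called 0 of 39, in fits that called 0.806%, 0.0124%, 0.0%, 0.0% and 1.13% of all genes higher, so that few calls were made of any gene. Without M9 alone 8 were called, against 6.03% of all genes. Altogether 17 of the 39 genes were called in at least 1 alternative setting and 22 in no setting.

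**Figure D1:**
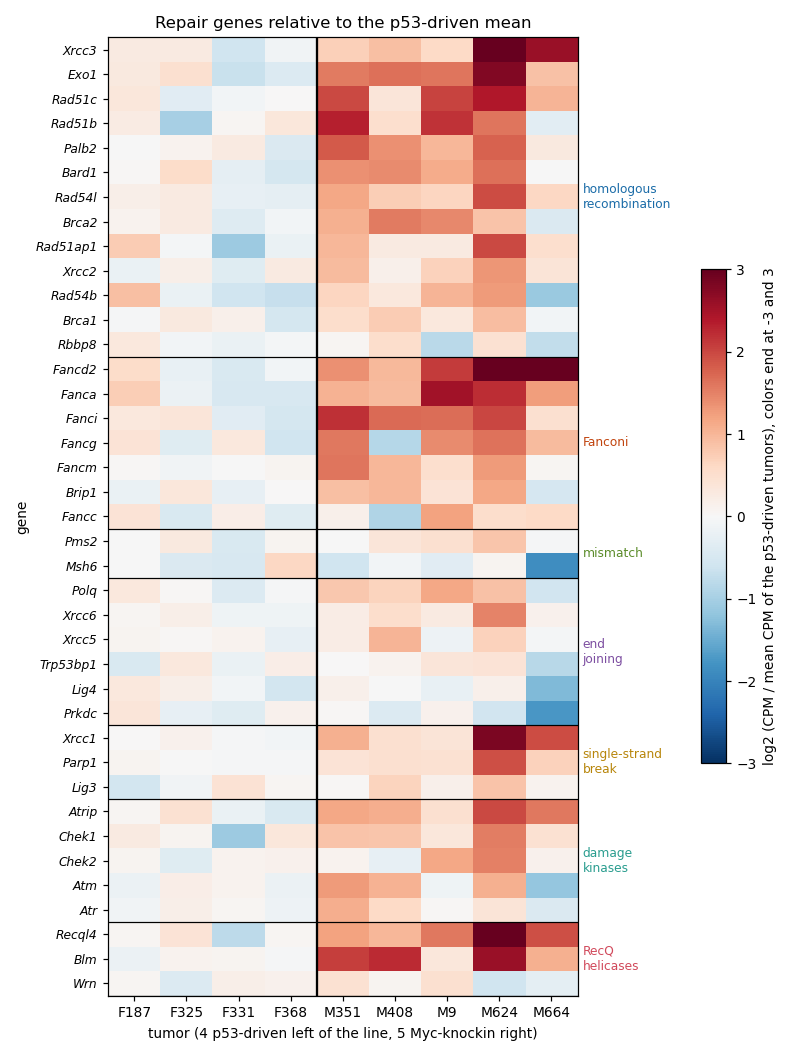
Log2 ratio of each repair gene's CPM to its mean in the p53-driven tumors, with tumors in columns and genes in rows grouped by route. Red stands for higher and blue for lower levels, colors end at -3 and 3, and the M624 column holds the highest Myc-knockin level of 25 of the 39 genes while M664 holds the lowest of 20.

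**Figure D2:**
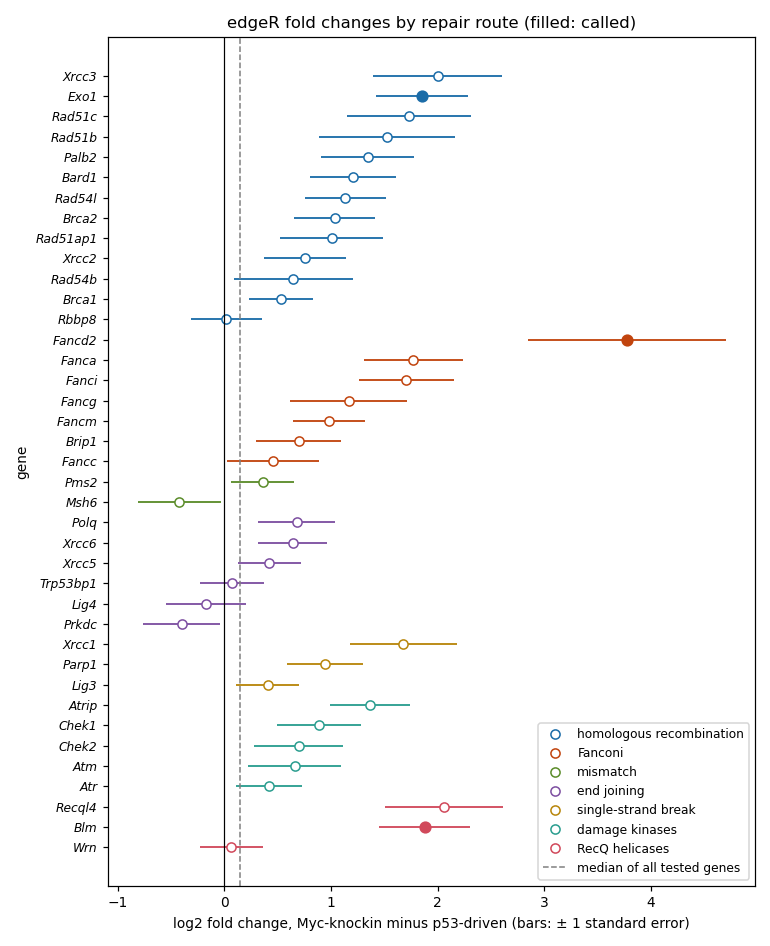
The edgeR log2 fold change of each repair gene, Myc-knockin minus p53-driven, with bars of 1 standard error and colors by route. Filled points mark the 3 genes called, the dashed line marks the median of all tested genes (0.14), and Msh6, Prkdc and Lig4 lie below 0.

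Promoters were read from the RefSeq table of build GRCm38.p6, which gives 300 bases per start site, from 250 before to 50 after, and holds 31 of the 39 genes. The E2F-type sites GGCGGGA and GCGCGAA, searched on both strands, are bound by factors of the G1 to S transition and lay in the promoters of 13 of the 31 genes (41.9%), against 12.6% of all 32851 promoters and 26.1% of the 10875 tested genes with a promoter in the table. The CCAAT box lay in 61.3% of the 31 genes, 37.4% of all promoters and 42.7% of tested genes. The E-box CACGTG, the letters that Myc and its partner Max prefer, lay in 3 of the 31 genes (9.68%), Xrcc5, Parp1 and Lig3, against 7.15% of all promoters and 11.5% of tested genes. TTTGAA, the CHR element of late cell cycle genes, lay in 9.68%, 17.9% and 14.6%. These are matches of letters only. Windows of 30 bases are shown for genes above and below in fold change, with the match in capitals, to let the letters be read beside the values that follow.
Fanci, E2F-type, chr7:79392296-79392325, plus strand, position -31 from the RefSeq start: tgcacctcgggGGCGGGAcctgttgctctg
Rad54l, E2F-type, chr4:116123696-116123725, minus strand, position -24: ggtggcagagtGGCGGGAggttcgattgac
Brip1, E2F-type, chr11:86201187-86201216, minus strand, position -12: gggaaccgaggGGCGGGAggcgcgaattca
Msh6, E2F-type read on the other strand, chr17:87975056-87975085, plus strand, position 17: cctcccgacttTCCCGCCagcggcggccgc
Blm, CCAAT box, chr7:80535142-80535171, minus strand, position -161: ttcagggattacCCAATcagaatcatcctt
Parp1, E-box, chr1:180568830-180568859, plus strand, position -49: acctcccaaggaCACGTGctgaagccccgc

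The same E2F-type letters thus stood beside Fanci, whose log2 fold change was 1.71, Rad54l at 1.13 and Brip1 at 0.70, and beside Msh6 at -0.42.

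Of the 3 RecQ helicases among the 39 genes, Blm rose in the Myc-knockin tumors. Recql4 had the larger fold change without passing the test, and Wrn stayed near 0. Blm, which dissolves double Holliday junctions and is chr7:80454733-80535119 in mm10 (ENSMUSG00000030528), measured 9.48, 11.4, 11.2 and 10.5 CPM in the p53-driven tumors and 44.9, 50.4, 13.5, 63.8 and 22.4 CPM in the Myc-knockin tumors. The p53-driven tumors were tightly grouped, every Myc-knockin tumor was above them, and M9 exceeded the highest by little. The means were 38.998 ± 20.6 (SD, n = 5) and 10.6 ± 0.868 (SD, n = 4) CPM, and the log2 fold change was 1.88 (adjusted p = 0.0357, standard error 0.43, exact permutation p = 0.0159). In M9, Blm had 17 counts, and the genomic background estimated from its exon length came to 64.2% of them, against 13.5% in M351 and 26.1% in F187, and with it subtracted M9 was no longer above the p53-driven tumors. The fold change was 1.86 without M624 and M664 (adjusted p = 0.0417) and 1.98 in the satellite-poor libraries (adjusted p = 0.0251). Of the 9 fits that left out a tumor, 3 called Blm, those without M408, M9 or M664, and in the others the adjusted p reached 0.144.

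Recql4, a helicase of replication initiation, measured 2.76, 3.58, 1.56 and 2.80 CPM in the p53-driven and 6.16, 5.31, 7.97, 24.99 and 10.3 CPM in the Myc-knockin tumors. Every Myc-knockin tumor was above every p53-driven one, with M624 far above the rest. The log2 fold change of 2.06 (standard error 0.55) had an adjusted p of 0.0539, and it was 1.31 (adjusted p = 0.136) without M624 and M664 and 2.75 (adjusted p = 0.0179) in the satellite-poor libraries. Recql4 had only 10 counts in each of M351 and M9, and shares 422 exon bases with Mfsd3 on the other strand, whose reads cannot be told apart because the strand setting of the counting was not given. It lies on chromosome 15, as Myc does, 14.71 Mb away, where the median log2 fold change of 614 tested genes was 0.09.

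Wrn, helicase and exonuclease, measured 31.6, 23.0, 34.3 and 33.1 CPM in the p53-driven and 41.9, 32.2, 42.2, 20.1 and 24.8 CPM in the Myc-knockin tumors. The groups overlapped, with M351 and M9 highest and M624 lowest of all 9 tumors. Its log2 fold change was 0.07 (adjusted p = 0.915, standard error 0.29), 0.39 without M624 and M664 and -0.41 in the satellite-poor libraries. Per kilobase of exon, Wrn stood at 4.01 CPM in the p53-driven tumors, above Blm at 1.21 and Recql4 at 0.616 CPM. In the Myc-knockin tumors the 3 were at 4.24, 4.44 and 2.52 CPM per kilobase.

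**Figure D3:**
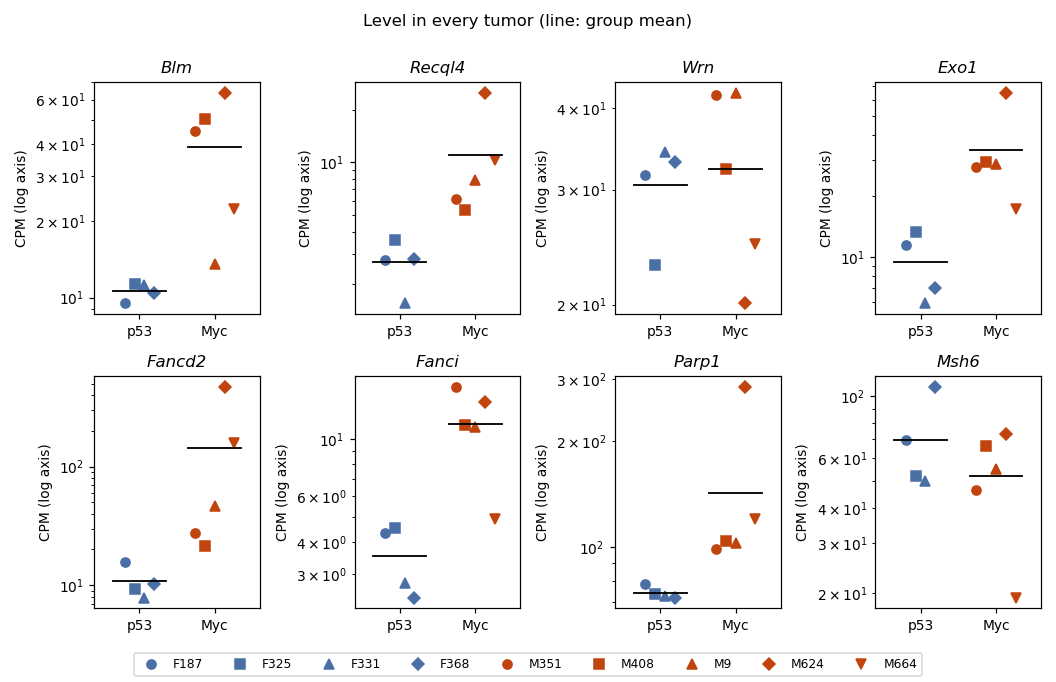
CPM of 8 repair genes in every tumor on log axes that differ between panels, with p53-driven tumors in blue, Myc-knockin tumors in orange, a symbol for each library and a line at the group mean. The groups are apart for Blm, Recql4, Exo1, Fancd2, Fanci and Parp1 and overlap for Wrn and Msh6.

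Among the 13 genes of homologous recombination, fold changes ran from 0.02 to 2.00 with a median of 1.13. All 13 were above 0 and 1 rose, where 2.26% of all tested genes were called higher. The groups did not overlap for 5, against 5.41% of all tested genes apart in that direction. With the estimated background subtracted, Palb2, Rad54l and Xrcc3 overlapped. Exo1, a nuclease that resects DNA ends and also serves mismatch repair, measured 11.5, 13.2, 5.88 and 7.05 CPM in the p53-driven and 27.7, 29.5, 28.7, 64.8 and 17.2 CPM in the Myc-knockin tumors. M664 was the lowest Myc-knockin tumor and still above F325, the highest p53-driven one. The log2 fold change was 1.85 (adjusted p = 0.0390, standard error 0.43, exact permutation p = 0.0159), 1.68 (adjusted p = 0.0365) without M624 and M664, and 2.25 (adjusted p = 0.0398) in the satellite-poor libraries. It was likewise called without M408, M9 or M664 and in no other fit that left out a tumor, where the adjusted p reached 0.158.

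Brca2, a mediator of strand exchange, measured 26.5, 30.1, 19.0 and 23.6 CPM in the p53-driven and 51.7, 73.3, 66.9, 45.1 and 18.4 CPM in the Myc-knockin tumors. Of the Myc-knockin tumors 4 were above all p53-driven ones and M664 was the lowest of all 9. The log2 fold change was 1.04 (adjusted p = 0.112, standard error 0.38), and 1.43 (adjusted p = 0.0329) without M624 and M664. Brca1, its partner in the same route, had 17.9 ± 4.14 CPM (SD, n = 4) and 25.9 ± 6.73 CPM (SD, n = 5) and a log2 fold change of 0.53 (adjusted p = 0.281). Bard1, which forms a ubiquitin ligase with Brca1, had 1.21 (adjusted p = 0.0897), and Palb2, which bridges Brca1 and Brca2, had 1.34 (adjusted p = 0.0843), with groups that did not overlap. In M9, the estimated background equalled 101% of the 9 counts of Palb2.

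Xrcc3, Rad51c, Rad51b and Xrcc2, which assist strand exchange, were low in the p53-driven tumors, with means of 2.63, 1.57, 2.32 and 5.42 CPM. Their means in the Myc-knockin tumors were 10.1, 5.19, 6.85 and 9.21 CPM. Xrcc3 measured 3.16, 3.19, 1.73 and 2.43 CPM in the p53-driven and 4.31, 4.94, 3.98, 21.4 and 15.9 CPM in the Myc-knockin tumors. Its groups did not overlap, but M624 and M664 stood apart from the other Myc-knockin tumors, and the log2 fold change of 2.00 (adjusted p = 0.0725) was 0.83 (adjusted p = 0.330) without them. Rad51c had 1.73 (adjusted p = 0.0920), with groups apart and no more than 10 counts in M351 and 8 in M9. Rad51b had 1.53 (adjusted p = 0.154) and Xrcc2 0.76 (adjusted p = 0.230), both with overlapping groups. Of the remaining factors, the translocase Rad54l had 1.13 (adjusted p = 0.0919) with groups apart, its relative Rad54b 0.65 (adjusted p = 0.482) and the accessory factor Rad51ap1 1.01 (adjusted p = 0.208). Rbbp8, also called CtIP, which starts resection, measured 36.3, 27.7, 25.4 and 28.1 CPM in the p53-driven and 30.8, 42.1, 16.7, 40.4 and 17.6 CPM in the Myc-knockin tumors. The highest and the lowest of the 9 values were both Myc-knockin, and the log2 fold change was 0.02 (adjusted p = 0.978, standard error 0.33). Reads of several genes of this route are uncertain, since Rad54b shares 2068 exon bases with Fsbp on the same strand, and Rad54l shares 1184 with Lrrc41, Palb2 414 with the pseudogene Gm16326 and Rbbp8 402 with an antisense gene on the other strand. Of all 39 repair genes, 17 share exon bases with a gene on the other strand and 5 with a gene on the same strand.

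All 7 Fanconi genes were above 0, with a median log2 fold change of 1.17, and 1 rose, where 2.26% of all tested genes were called higher. Fancd2, the protein that is monoubiquitinated at crosslinks (chr6:113531682-113597017 in mm10, ENSMUSG00000034023), had the largest difference of the 39 genes. It measured 15.8, 9.26, 7.87 and 10.2 CPM in the p53-driven tumors and 27.7, 21.2, 46.2, 471 and 157 CPM in the Myc-knockin tumors. All 5 Myc-knockin tumors were above the p53-driven ones, and M624 and M664 were far above the other 3. The log2 fold change was 3.78 (adjusted p = 0.0429, standard error 0.93, exact permutation p = 0.0159), 1.61 (adjusted p = 0.0417) without M624 and M664, and 5.12 (adjusted p = 0.00483) in the satellite-poor libraries. Of the fits with a tumor left out, those without M351, M408 or M9 called it, and in the others the adjusted p reached 0.166. Fancd2 shares 257 exon bases with Fancd2os on the other strand.

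The genes around Fancd2 were looked at after its values were seen. From Thumpd3 to Sec13, 27 tested genes had a median log2 ratio to the p53-driven mean of 2.66 in M624 and 2.66 in M664, against -0.40 in M351, -0.28 in M408 and 0.34 in M9. The ratio was over 3-fold for 21 of the 27 genes in M624 and 20 in M664, and for 4, 3 and 8 in M351, M408 and M9. The ends of this run were set from the values. Over all 35 tested genes within 1 Mb the medians were 2.63 in M624 and 2.30 in M664, against 0.16, -0.28 and 0.36. Beyond Sec13 the 4 further tested genes had medians of -1.30 in M624 and 0.27 in M664, and of 3.55 in M351 and 4.19 in M9, the libraries with the most genomic background. Before Thumpd3 the 4 further tested genes had medians of -0.18 in M624 and -0.82 in M664. In M351, M408 and M9 their medians were 1.48, -0.015 and -0.28. Of these genes, Rad18 had log2 ratios of 3.65, 3.71 and 3.56 in M351, M408 and M624. It was at 1.01 in M9 and -0.32 in M664. Setd5, inside the run, was at 2.65 in M408 but -0.76 in M351. M624 and M664 were thus high over a run of neighbours and not in Fancd2 alone. Single neighbours were also high in M351 and M408.

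Jagn1, which starts at -89.1 kb from the start of Fancd2, stood at 20.9 and 21.6 times the p53-driven mean in M624 and M664 and at 0.81 to 1.28 times in the other Myc-knockin tumors. Vhl, at 92.3 kb, stood at 6.10 and 6.93 times and at 0.42 to 1.00 times. Irak2, at 106.8 kb, was not high in either, at 0.62 and 0.95 times. Brpf1 stood at 16.0 times in M624 but 1.51 times in M664. Ogg1, the glycosylase that removes oxidized guanine, starts at -204.7 kb and measured 139 and 95.2 CPM in M624 and M664, while M351, M408 and M9 lay at 4.40 to 9.56 CPM and the p53-driven tumors at 3.46 to 7.54 CPM. Its log2 fold change was 3.41 (adjusted p = 0.0707), and 0.47 (adjusted p = 0.534) without that pair. In M351, M408 and M9, Fancd2 stood at 2.57, 1.97 and 4.28 times the p53-driven mean. Thumpd3, at the far end of the run, was also high there, at 10.3, 16.6 and 3.46 times, and rose with a log2 fold change of 3.64 (adjusted p = 0.0137). Gm44199, at 78.6 kb, stood at 3.26, 2.13 and 5.90 times and rose by 2.66 (adjusted p = 0.0431). Its ratios rest on few reads, with a p53-driven mean of 0.945 CPM and 3.08, 2.01 and 5.58 CPM in M351, M408 and M9. In these libraries 3 counts stand for 1.85, 0.549 and 2.39 CPM. Gt(ROSA)26Sor, a locus often used to insert alleles in mice, ends 454.3 kb before Fancd2 and was at 0.51 and 0.50 times in M624 and M664. The insertion site of the Myc allele was not given in the sources used here, and DNA was not analysed here.

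**Figure D4:**
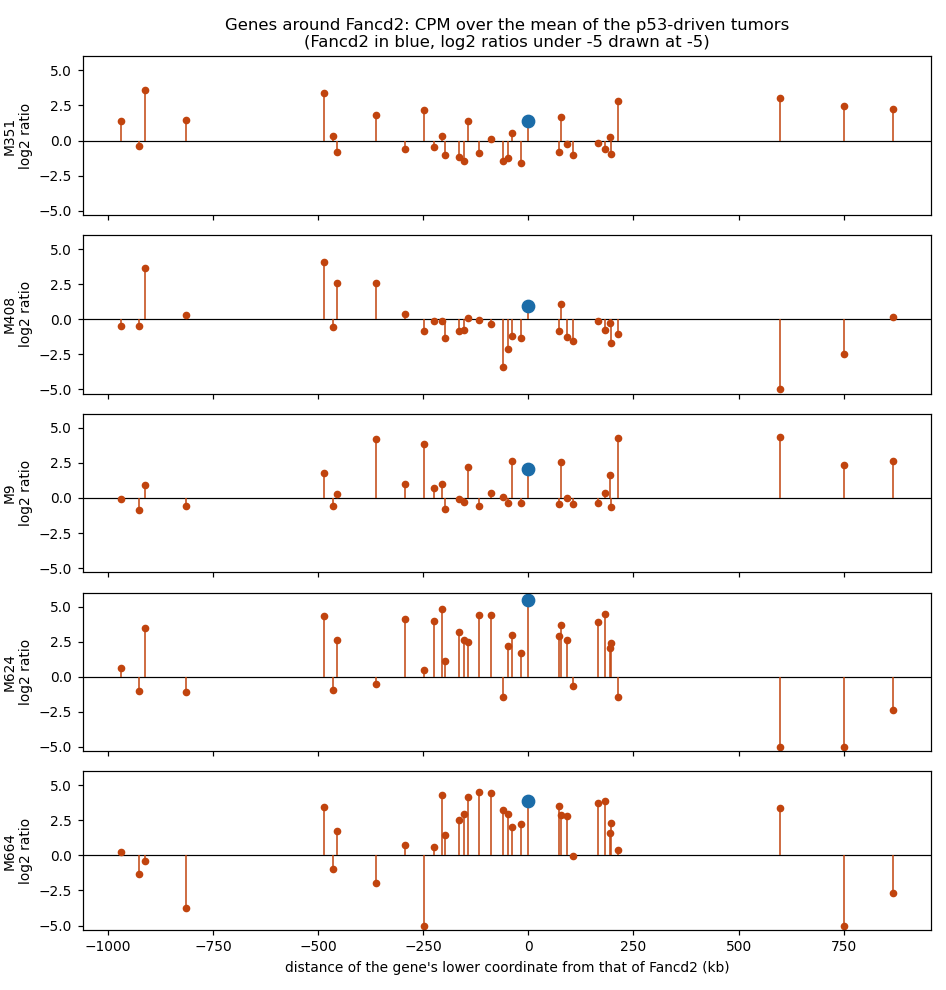
Log2 ratio of CPM in each Myc-knockin tumor to the p53-driven mean for the 35 tested genes within 1 Mb of Fancd2, against the distance between lower coordinates in kb, with Fancd2 in blue and ratios under -5 drawn at -5. In M624 and M664 a block of genes on both sides of Fancd2 is high, with a median of 2.66 from Thumpd3 to Sec13, while M351, M408 and M9 have medians between -0.40 and 0.34.

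The other Fanconi genes differed less. Fanci, the partner of Fancd2 in the clamp on DNA, measured 4.34, 4.51, 2.77 and 2.43 CPM in the p53-driven and 16.0, 11.4, 11.2, 14.0 and 4.92 CPM in the Myc-knockin tumors. M664, the lowest Myc-knockin tumor, exceeded F325 by little, and the log2 fold change was 1.71 (adjusted p = 0.0501, standard error 0.44), with 1.93 (adjusted p = 0.0367) without M624 and M664. Fanci shares 921 exon bases with Polg on the other strand. Fanca, of the core ubiquitin ligase, measured 9.08, 4.74, 3.89 and 3.89 CPM and 11.1, 10.4, 31.1, 25.3 and 12.95 CPM, also without overlap, with a log2 fold change of 1.77 (adjusted p = 0.0501). Fanca shares 920 exon bases with Zfp276. Fancm, the translocase that recruits the core, had 0.98 (adjusted p = 0.0980), Fancg 1.17 (adjusted p = 0.201), Brip1, a helicase bound to Brca1, 0.70 (adjusted p = 0.285) and Fancc 0.46 (adjusted p = 0.526), all with overlapping groups.

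By edgeR none of the 5 damage kinase genes was called, and all were above 0 with a median of 0.70. There were 2 higher at an unadjusted p under 0.05, where 14.9% of all tested genes were. DESeq2 called 1 higher, against 10.5% of all genes. Atrip, which brings the kinase Atr to single-stranded DNA, measured 7.11, 9.41, 5.97 and 4.98 CPM in the p53-driven and 15.4, 14.7, 9.56, 27.3 and 20.6 CPM in the Myc-knockin tumors. The groups met without overlapping, at 9.41 in F325 and 9.56 in M9, and the log2 fold change was 1.37 (adjusted p = 0.0560, standard error 0.37). In M9 the estimated background came to 74.1% of the 12 counts of Atrip. Atrip shares 1147 exon bases with Trex1 on the same strand. Atr itself had a log2 fold change of 0.42 (adjusted p = 0.415) and its effector kinase Chek1 0.89 (adjusted p = 0.175), with groups apart for Chek1 only. Atm, the kinase of double-strand breaks, measured 34.8, 44.7, 41.9 and 34.8 CPM and 94.2, 80.0, 35.9, 81.6 and 17.4 CPM. Of the Myc-knockin tumors 3 were above the p53-driven range, M9 was inside it and M664 below it, and the log2 fold change was 0.66 (adjusted p = 0.357). Chek2, the effector of Atm, had 0.70 (adjusted p = 0.309).

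For the 3 genes of single-strand breaks edgeR called none, 2 had an unadjusted p under 0.05 and DESeq2 called 2. Of all tested genes 14.9% were higher at that unadjusted p, and DESeq2 called 10.5% higher. The groups were apart for 2, where 5.41% of all tested genes were apart in that direction, and Xrcc1 overlapped with the estimated background subtracted. Parp1, the sensor of such breaks, measured 78.6, 73.7, 72.9 and 72.0 CPM in the p53-driven and 99.1, 104, 103, 286 and 121 CPM in the Myc-knockin tumors. The p53-driven tumors lay within a narrow range, 4 Myc-knockin tumors lay little above it and M624 far above. Its log2 fold change was 0.94 (adjusted p = 0.123, standard error 0.36), 0.51 (adjusted p = 0.155) without M624 and M664 and 1.49 (adjusted p = 0.0332) in the satellite-poor libraries. Per kilobase of exon Parp1 was at 14.0 CPM in the p53-driven and 26.9 CPM in the Myc-knockin tumors. Xrcc1, the scaffold of the repair complex, measured 9.08, 9.88, 8.82 and 8.51 CPM and 19.1, 12.6, 11.95, 64.0 and 35.1 CPM. M624 and M664 were again highest, and the log2 fold change of 1.68 (adjusted p = 0.0688) was 0.73 (adjusted p = 0.131) without them. Lig3, the ligase bound to Xrcc1, overlapped between groups at 0.41 (adjusted p = 0.401), and shares 1826 exon bases with Rffl.

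Differences in end joining were small. By edgeR none of the 6 genes was called, 0 had an unadjusted p under 0.05 and DESeq2 called 0. Of all tested genes 14.9% were higher and 11.8% lower at that unadjusted p. The groups overlapped for all 6, and the median log2 fold change was 0.25 with 4 of 6 above 0. Prkdc, the kinase bound to Ku at broken ends, measured 51.7, 34.0, 31.5 and 43.6 CPM in the p53-driven and 41.2, 30.2, 43.8, 26.9 and 12.004 CPM in the Myc-knockin tumors. M664 was the lowest of all 9 tumors, and the log2 fold change of -0.40 (adjusted p = 0.511, standard error 0.36) was -0.02 without M624 and M664 and -0.89 (adjusted p = 0.149) in the satellite-poor libraries. Lig4, the ligase that seals the ends, had -0.17 (adjusted p = 0.808). The Ku subunits Xrcc5 and Xrcc6 had 0.42 (adjusted p = 0.387) and 0.64 (adjusted p = 0.230), and Polq, the polymerase of a back-up route, 0.68 (adjusted p = 0.252). Trp53bp1, which shields ends from resection, measured 37.1, 63.7, 44.6 and 59.0 CPM and 51.7, 55.3, 65.3, 68.1 and 28.9 CPM, and its log2 fold change was 0.07 (adjusted p = 0.910, standard error 0.30), with 2130 exon bases shared with Tubgcp4.

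Neither mismatch gene was called by edgeR or DESeq2 or had an unadjusted p under 0.05. Msh6, which recognizes single mispaired bases, measured 69.5, 51.9, 49.7 and 108 CPM in the p53-driven and 46.2, 66.3, 55.0, 73.3 and 19.3 CPM in the Myc-knockin tumors. The groups overlapped, with F368 highest and M664 lowest, and the log2 fold change was -0.42 (adjusted p = 0.519, standard error 0.39). Pms2, a nuclease of this route, had 0.36 (adjusted p = 0.461). Pms2 shares 394 exon bases with Gm42421 on the same strand, so its reads are uncertain.

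Outside these genes, 97 of 99 further repair genes were tested. Of these 79 were above 0 with a median log2 fold change of 0.63, where 56.2% of all tested genes were above 0. By edgeR 6 rose and 0 fell, against 2.26% and 3.0% of all tested genes. The groups were apart for 14, all higher in the Myc-knockin tumors, against 5.41% of all tested genes. At an unadjusted p under 0.05 there were 36 higher and 0 lower, against 14.9% and 11.8% of all tested genes. Those that rose included Ung, which removes uracil, at 2.42 (adjusted p = 0.0312), the abasic site nuclease Apex1 at 1.89 (adjusted p = 0.0386), Ube2t, the E2 enzyme that acts on Fancd2, at 1.88 (adjusted p = 0.0487), Tdp1, which frees trapped topoisomerase, at 1.52 (adjusted p = 0.0319) and Wee1, the kinase that holds Cdk1, at 1.52 (adjusted p = 0.0421). By route the further genes of base excision and single-strand breaks had the highest median, 1.34 over 18 genes, followed by the Fanconi genes with 1.08 over 11 and damage signalling with 0.82 over 13. The further genes of homologous recombination and resection had 0.48 with 14 of 22 above 0, lower than the 1.13 and 13 of 13 of those described above. Mismatch repair had 0.41 over 5, nucleotide excision 0.34 over 13, end joining 0.27 over 10 and a further RecQ list 0.15 over 5. That list held the RecQ helicases Recql at -0.03 (adjusted p = 0.968) and Recql5 at 0.15 (adjusted p = 0.797), both with overlapping groups. Its other genes were the partners Rmi1 at 0.14, Rmi2 at 1.54 and Top3a at 1.32, none of them called.

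Genes of the cell cycle leaned the same way. All 25 S phase genes tested were above 0 with a median of 1.30, and 7 rose. All 20 genes of G2 and mitosis were above 0 with a median of 1.04, and 4 rose. Of all tested genes 56.2% were above 0 and 2.26% were called higher. Over the 39 repair genes, mean log2 CPM was 3.31 to 3.66 in the p53-driven tumors and 4.38, 4.14, 4.24, 4.97 and 3.76 in the Myc-knockin tumors. The S phase genes were at 3.61 to 4.26 in the p53-driven tumors and at 4.52, 4.94, 4.68, 6.16 and 4.93. M624 was highest on both measures, and M664, lowest of the Myc-knockin tumors for the repair genes, was not lowest for the S phase genes. The difference between the 2 means was -0.63 to -0.25 in the p53-driven tumors and -0.13, -0.80, -0.44, -1.20 and -1.17 in the Myc-knockin tumors, of which M351 lay above and M9 inside the p53-driven range. The part of cell cycling in the repair genes' levels was not tested.

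**Figure D5:**
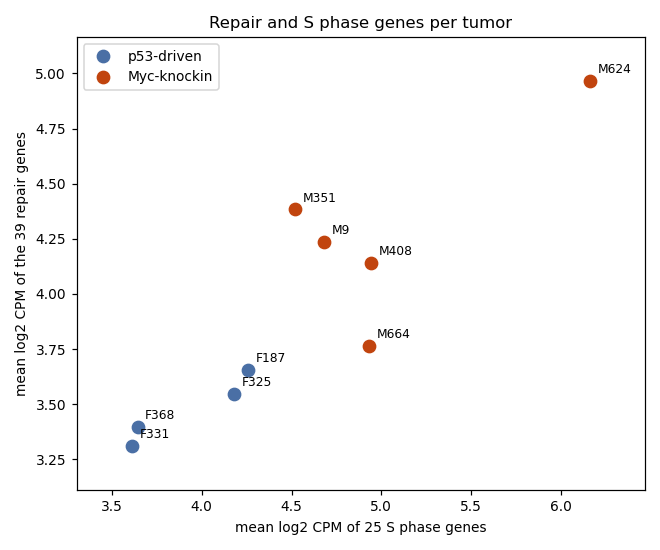
Mean log2 CPM of the 39 repair genes against that of 25 S phase genes, 1 point per tumor, p53-driven in blue and Myc-knockin in orange. The 5 Myc-knockin tumors lie above the 4 p53-driven tumors on both axes, M624 at 4.97 and 6.16 and M664 at 3.76 and 4.93.

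The Myc-knockin tumors also differed among themselves. M351, M408 and M9 had 29, 28 and 30 of the 39 genes above all p53-driven tumors, M624 had 35 and M664 had 18. The same count per tumor over all tested genes was not made. Genomic background was not removed from these levels, and was estimated at 16.8% of the counts outside satellite genes in M351 and 24.2% in M9. In M624 and M664 together, relative to the other 3 Myc-knockin tumors, Fancd2 was higher by 3.17, Xrcc3 by 2.02, Xrcc1 by 1.72 and Recql4 by 1.30 on the log2 scale, while Brca2 was at -1.13, Prkdc at -1.07 and Wrn at -0.78. Across the 39 genes this difference had a rank correlation of 0.60 with GC content and -0.40 with exon length, as a description over genes that share the same libraries, and over all 15359 tested genes with both values the correlations were 0.40 and -0.23. Within the libraries with satellite reads, F187 alone against M351, M408 and M9, 32 of 39 genes were above 0. The median log2 difference was 0.64, with estimated background of 5.52% in F187 and 16.8%, 0.602% and 24.2% in M351, M408 and M9. The share over all tested genes was not computed there. In the libraries without satellite reads 34 of 39 were above 0 with a median of 1.02. Of the 14956 genes tested both there and over all 9 tumors, 7584 were above 0, with a median of 0.02. Over all 16495 genes tested in these libraries the median was -0.0029. In both comparisons, 30 of the 39 genes were above 0.

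Summed levels of leukocyte, osteoclast and osteoblast markers were lower in the Myc-knockin tumors, while those of muscle genes overlapped. Summed over 10 leukocyte and macrophage markers, levels were 790 to 1483 CPM in the p53-driven and 253 to 654 CPM in the Myc-knockin tumors, and 3 of the 10 fell. Over 6 osteoclast markers they were 1493 to 8552 and 61.3 to 935 CPM, with 5 of 6 fallen and Dcstamp, which fuses osteoclast precursors, at 0 in M408. Over 10 osteoblast genes they were 65477 to 141257 and 3610 to 41295 CPM, with 2 fallen, where 3.0% of all tested genes fell. Over 6 muscle genes they ran from 11.1 to 4740 and from 2.67 to 1793 CPM. Their part in the repair genes' values was not tested. By position, Blm, Xrcc1, Fanci and Palb2 lie on chromosome 7, where the median log2 fold change of 1109 tested genes was 0.51. Fanca, Lig4 and Wrn lie on chromosome 8, where it was 0.54 over 810 genes. Rad51b, Xrcc3 and Fancm lie on chromosome 12, where it was 0.46 over 549 genes.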

How the data were processed

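RNA was extracted from whole tumors and enriched with oligo-dT by the study's methods, and the submitters' processing notes name Trim Galore, STAR, featureCounts and mm10. The deposited table holds raw counts, the whole number of reads that the authors assigned to each gene, without normalization; strand and multi-mapping settings are not given in the sources used here. F187, F325, F331, F368, M408 and M624 are named under a genotype in the study's supporting data, while for 3 further columns, M351, M9 and M664, the initial M alone placed them with the Myc-knockin tumors. The members and lists were chosen with earlier results of these data known.

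Counts of 55367 genes were fitted in R 4.3.3 with edgeR 4.0.16 (TMM, filterByExpr with a minimum count of 10, glmQLFit and glmQLFTest), with Benjamini-Hochberg adjustment over 15365 genes, and a call required both a fold change over 1.5 and an adjusted p under 0.05. The script was tested on simulated counts. Standard errors are the log2 fold change divided by the root of the F statistic, and a prior count of 2 was used for log2 CPM. Exact permutation tests used scipy 1.17.1. Genomic background was estimated per kilobase of exon from 1824 chemosensory receptor genes, and satellite reads are those on 12 repeat genes. Positions and exons came from GENCODE for the same build. Values per tumor are given for called genes and for others of each route, and further repair genes are named where called, except results not reported here; Ogg1, the neighbours of Fancd2 and the comparison of M624 and M664 with the other Myc-knockin tumors were chosen after the values were seen. Alternatives were DESeq2 1.42.0, limma 3.58.1 (voom with quality weights), upper-quartile and library-size scaling, other filters, removal of satellite genes, subtraction of background, and libraries left out. Fits without M351 and M9, with library class as a covariate, and with subtraction and omission combined, and the comparison of overlap after subtraction, were chosen after seeing the data.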

Additional observations from a re-analysis of the deposited data

Results flagged for a closer look

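Of 78 groups of tumors, 39 genes in each of 2 genotypes, 5 held a tumor whose gap to its nearest neighbour took more of the group's log2 range than Dixon's 95% critical value allows, where chance alone marks about 1 in 20 groups. In the Myc-knockin tumors, Fancg was at 1.83 CPM in M408 against 6.30 to 10.2 in the others. Lig4 was at 4.45 CPM in M664 against 9.56 to 12.4, and Polq at 8.68 CPM in the same tumor against 20.5 to 28.7. Parp1 was at 286 CPM in M624 against 99.1 to 121. In the p53-driven tumors, Chek2 was at 6.69 CPM in F325 against 9.08 to 9.36.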

How the results depend on the processing

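No paired analysis was possible because the table's columns carry no replicate numbers. No setting called a repair gene lower, and the median of the repair genes ran from 0.61 (without M624) to 1.02 (satellite-poor libraries). The number of repair genes called higher, 3 of 39, became 7 with upper-quartile scaling, 0 with library size alone, 15 with DESeq2, 10 with limma-voom, 1 with all genes of at least 1 count, 10 of 34 where every tumor had to reach 10 counts, 6 of 38 without M624 and M664, 11 in the satellite-poor libraries, 8 without M351 and M9, and 9 with library class as a covariate. With 1 tumor left out it ran from 0 (F187, F325, F331, F368 or M624 left out) to 8 (M9 left out). All genes called, 809, became 136, 2646, 1663, 494 and 1316 with library size alone, DESeq2, limma-voom, at least 1 count and at least 10 counts, 4595 in the satellite-poor libraries, 1926 without M351 and M9, 2016 with the covariate, and 5 (without F368) to 1588 (without M9) with 1 tumor left out. The cause was not tested.

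The median of all tested genes, 0.14, became 0.03 with library size alone and -0.04 with limma-voom. Among the repair genes and the settings run, the sign turned for 4 genes. Lig4 was at 0.044 without M624 and M664, and from -0.34 to 0.053 with 1 tumor left out. Rbbp8 was at -0.022 with limma-voom, -0.033 with at least 1 count, -0.093 with background subtracted, -0.037 with the covariate, -0.053 with background subtracted and without M624 and M664, and from -0.11 to 0.18 with 1 tumor left out. Trp53bp1 was at -0.095 with library size alone, -0.050 with at least 1 count, -0.18 in the satellite-poor libraries, -0.0039 without M351 and M9, and from -0.082 to 0.26 with 1 tumor left out. Wrn was at -0.19, -0.078 and -0.41 in the first 3 of these, -0.23 without M351 and M9, -0.17 with the covariate, and from -0.050 to 0.26 with 1 tumor left out, and in none of these settings did the 4 genes pass the test. Depth limits M9 and M351, where 3 counts stand for 2.39 and 1.85 CPM.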
